A study of Mus musculus with 11 samples.

Results

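The 9 genes described here are 6 small heat shock proteins (Hspb1, Hspb2, Hspb6, Hspb7, Hspb8 and Cryab) and 3 Bag co-chaperones (Bag1, Bag2 and Bag3), in skeletal muscle stem cells of the mouse. They were taken by symbol from the 48709 genes of the count table. They and the related lists below were chosen with earlier results of these data known. All 9 passed the filter on low counts that left 31999 genes for testing. The cells came from pectoral, forelimb and hindlimb muscle of Tg:Pax7-nGFP mice of the C57BL/6 strain, in which a nuclear green fluorescent protein marks cells that express Pax7, the transcription factor of muscle stem cells. Age and sex are not given in the sources used here. All 3 groups carried the transgene and were fixed with 0.5% paraformaldehyde, a fixative used to hold the RNA of a cell as it was. In T0 the whole muscle was fixed for 1 h at 4 °C before any dissociation. In T3 the cells were isolated and sorted by FACS and then fixed for 30 min on ice. In T5 there was an added 2 h at 37 °C, and fixation was as in T3. The treatment protocol places these 2 h on dissected muscle in culture medium, before sorting, and the series description places them after isolation. T3 against T0 addresses what changed during isolation, together with the difference in fixation, which cannot be told apart from it. T5 against T3 addresses the added 2 h.

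Small heat shock proteins are chaperones with an alpha-crystallin domain that assemble into oligomers, bind unfolding proteins without using ATP, and hand them to Hsp70 for refolding or disposal. Bag proteins bind the ATPase domain of Hsp70 and make it release its client, and Bag3 also binds small heat shock proteins, Hspb8 above all, so that it couples them to Hsp70 and to autophagy. In striated muscle this machinery is known for holding desmin, actin and filamin structures together under mechanical load. Heat shock factor 1 (Hsf1) drives many chaperone genes by binding repeats of GAA and its complement TTC in their promoters.

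There were 3 libraries of T0, 4 of T3 and 4 of T5. The T0 libraries held 49078859 to 67251946 counts each, those of T3 52632553 to 72638711, and those of T5 61837170 to 102347035. T5 libraries with the same letter (A5 and A6, B5 and B6) were added up for tests, so that n = 3, n = 4 and n = 2. Levels are CPM, the share of a library's counts scaled to a common size after correction by TMM, the scaling method of edgeR. The labels do not say that libraries came from separate animals, so p-values reflect only how far these libraries differ, which may be technical variation. Markers of satellite cells were found in each library, and their summed level was 4800 to 6997 CPM in T0 libraries, 2336 to 2912 CPM in T3 libraries and 1658 to 1874 CPM in T5 libraries. Of the 8 markers, 2 rose and 3 fell in T3 against T0. None rose and 3 fell in T5 against T3, and 1 rose and 6 fell in T5 against T0. The shares of all genes called are given below. Pax7 made up most of the T0 sum, with a mean of 3613 CPM in T0, 315 in T3 and 316 in T5. Its fall was 3.52 on the log2 scale in T3 against T0 (adjusted p = 3.01e-10, edgeR quasi-likelihood test). T0 library 3 stood apart among the 9 genes: it was the lowest of its group for Bag1, Bag2, Bag3, Hspb6 and Hspb7 and the highest for Hspb1, Hspb8 and Cryab.

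Of the 9 genes, 4 rose in T3 against T0 (Hspb1, Hspb8, Cryab and Bag3), 1 fell (Hspb2) and 4 were not called (Hspb6, Hspb7, Bag1 and Bag2). Among all genes tested 15.0% were called higher and 22.9% lower, with edgeR's quasi-likelihood test and a Benjamini-Hochberg adjusted p under 0.05. In T5 against T3, 3 rose further (Hspb1, Hspb8 and Cryab) and none fell (none at an unadjusted p under 0.05 in edgeR, and none with DESeq2), where 1.28% of all genes were called higher and 0.888% lower. In T5 against T0 the count was again 4 higher, 1 lower and 4 not called, beside 13.2% and 22.5% of all genes. The median log2 fold change of the 9 was 0.43, 0.40 and 0.15 in these comparisons, and that of all genes tested was 0.05, 0.05 and 0.18. The comparisons share groups, so they are not independent of each other. With upper quartile scaling the median of all genes moved to 0.32 in T3 against T0 and 0.51 in T5 against T0, and the called genes that were lower moved from 60.4% to 44.7% and from 62.9% to 44.1%. For T5 against T3 the lower share was 40.9%, and it was 50.6% with upper quartile scaling and 66.2% with DESeq2. The direction of the 5 genes that changed in T3 against T0 and in T5 against T0 was the same under each scaling. In bulk RNA, fewer cells of a type and less RNA per cell cannot be told apart.

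**Figure D1:**
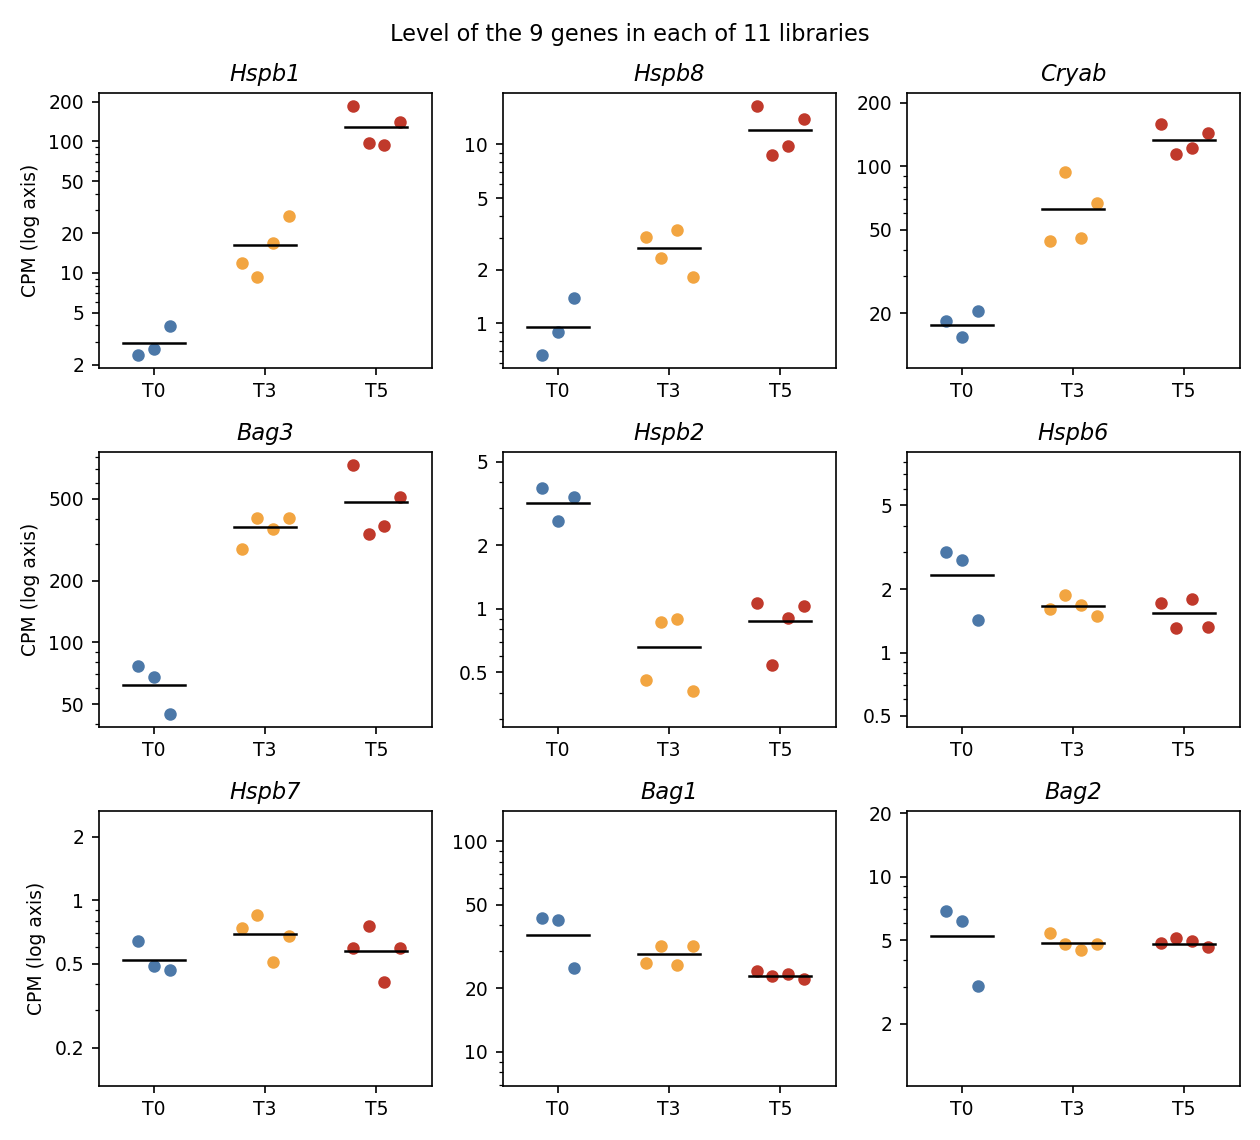
Level of each gene in CPM (log axis, each panel with its own range) in the 3 T0, 4 T3 and 4 T5 libraries; each point is 1 library and the line is the mean of the replicates of the group. Hspb1 went from 2.92 to 16.3 and 128 CPM, whereas Hspb2 stood higher in the 3 T0 libraries than in any other.

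RefSeq promoter windows (GRCm38.p6, 250 bases before to 50 bases after the start) were found for 7 of the 9 genes, Hspb6 with 2 starts, and none was found for Hspb2 and Cryab. They were searched on both strands for GAANNTTC, an inverted pair of the GAA units that Hsf1 binds, which reads the same on both strands. The motif was in 4 of the 8 windows, those of Hspb1, Hspb8, Bag3 and the second start of Hspb6, and 7.86% of all 32841 promoter windows hold it. These 4 are shown because 3 of them belong to genes that rose in T3 and the other to a gene that was not called; capitals mark the motif, and each sequence is written 5′ to 3′ on the strand of its gene. They lie at chr5:135887669-135887968 (plus strand) for Hspb1, chr5:116422815-116423114 (minus strand) for Hspb8, chr7:128523333-128523632 (plus strand) for Bag3 and chr7:30553051-30553350 (plus strand) for Hspb6.
Hspb1: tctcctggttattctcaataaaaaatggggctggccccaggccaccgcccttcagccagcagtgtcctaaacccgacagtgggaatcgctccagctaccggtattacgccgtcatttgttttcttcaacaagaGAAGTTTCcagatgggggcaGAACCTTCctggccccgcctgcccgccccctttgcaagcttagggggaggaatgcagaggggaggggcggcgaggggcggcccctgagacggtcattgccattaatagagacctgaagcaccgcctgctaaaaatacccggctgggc
Hspb8: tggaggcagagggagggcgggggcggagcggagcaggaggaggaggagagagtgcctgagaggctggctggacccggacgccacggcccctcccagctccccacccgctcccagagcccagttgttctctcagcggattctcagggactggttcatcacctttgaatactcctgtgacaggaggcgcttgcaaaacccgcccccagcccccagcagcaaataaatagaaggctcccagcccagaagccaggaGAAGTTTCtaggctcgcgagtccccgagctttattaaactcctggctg
Bag3: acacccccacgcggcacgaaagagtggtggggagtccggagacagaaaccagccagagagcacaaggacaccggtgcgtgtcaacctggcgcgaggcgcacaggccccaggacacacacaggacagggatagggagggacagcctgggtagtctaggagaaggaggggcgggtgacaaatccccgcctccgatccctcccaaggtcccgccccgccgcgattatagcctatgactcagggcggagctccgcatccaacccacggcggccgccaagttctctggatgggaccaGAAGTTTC
Hspb6: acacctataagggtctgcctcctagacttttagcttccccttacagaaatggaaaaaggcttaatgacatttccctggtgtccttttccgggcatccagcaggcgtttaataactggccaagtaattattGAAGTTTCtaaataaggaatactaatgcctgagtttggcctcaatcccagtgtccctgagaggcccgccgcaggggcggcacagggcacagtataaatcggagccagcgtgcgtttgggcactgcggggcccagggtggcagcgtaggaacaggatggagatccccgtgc

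Each of the 4 windows holds the same 8 bases, GAAGTTTC, which some 1.21% of all windows hold on either strand. These 8 bases were taken from the matches themselves, so this share is a description and not a test. In Hspb1 the match GAAGTTTC began 117 bases before the start, and a further match, GAACCTTC, began 97 bases before it. In Hspb8 the match covered bases 3 to 10 after the start and in Bag3 bases 43 to 50 after it, so that both lie in transcribed sequence, and in Hspb6 it began 120 bases before the start. The windows of Bag1, Bag2, Hspb7 and the first start of Hspb6 hold no match. The opposite order of units, TTCNNGAA, was in none of the 8 windows and in 8.52% of all windows. Arrays of 3 units were in none of the 8 either, and 0.311% and 0.32% of all windows hold one that begins with GAA or with TTC. A match is a run of letters and not a measured binding site.

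Hspb1 (Hsp27) caps actin filaments, forms large oligomers and is released from them when phosphorylated by the kinases downstream of p38. Its gene lies at chr5:135887919-135889563 on the plus strand (GRCm38, GENCODE vM21; 2 exonic blocks of 1031 bases in all). Its level was 2.37, 2.62 and 3.96 CPM in the T0 libraries, 12.0, 9.34, 16.9 and 26.9 CPM in T3, and 186, 96.9, 94.1 and 140 CPM in T5 (A5, A6, B5 and B6). The 3 groups did not overlap, and each step was larger than the spread of up to 2.88-fold between libraries of a group. The log2 fold change was 2.47 ± 0.31 (SE) in T3 against T0 (adjusted p = 8.12e-07, edgeR) and 2.97 ± 0.30 in T5 against T3 (adjusted p = 2.15e-06). From T0 to T5 it was 5.44 ± 0.37 (adjusted p = 4.17e-10), a 43.5-fold rise, the largest among the 9 genes. Hspb1 stood above 63.3% of tested genes by level per exonic length in T0 and above 98.8% in T5.

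Hspb8 (Hsp22) is the small heat shock protein that binds Bag3 most firmly and brings misfolded clients to it. It lies at chr5:116408491-116422864 on the minus strand. The level was low in T0, with 0.664, 0.891 and 1.38 CPM. T3 libraries had 3.05, 2.33, 3.32 and 1.81 CPM, and T5 libraries 16.4, 8.77, 9.85 and 13.9 CPM. No library overlapped with another group, though the gap between the highest T0 and the lowest T3 library was small. The gene rose by 1.43 ± 0.27 (log2, SE) in T3 against T0 (adjusted p = 0.000166, edgeR) and by 2.20 ± 0.27 in T5 against T3 (adjusted p = 2.2e-05). The T5 against T0 change was 3.63 ± 0.31 (adjusted p = 1.31e-08), which is 12.4-fold. For Hspb1 and Hspb8, 45.4% and 39.4% of the log2 change from T0 to T5 had been reached at T3. The difference between the 2 steps was not tested.

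The count of Hspb1 relative to that of Hspb8 was 2.86 to 3.57 in T0 and 9.55 to 11.4 in T5. In T3 it was 3.92, 4.01, 5.10 and 14.9, and T3 library 4 thus had the highest Hspb1 and the lowest Hspb8 level of its group. Leaving out this library kept both genes called in each comparison.

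Cryab (alpha-B-crystallin, Hspb5) is the small heat shock protein best known for protecting desmin filaments, and its mutation causes desmin aggregates in muscle. It lies at chr9:50751325-50756636 on the plus strand. Its level was 18.3, 15.4 and 20.5 CPM in T0, 43.9, 94.0, 45.5 and 66.9 CPM in T3, and 158, 114, 121 and 143 CPM in T5. The groups did not overlap, and the T3 libraries spread over 2.14-fold. Cryab rose by 1.83 ± 0.26 (log2, SE) in T3 against T0 (adjusted p = 3.74e-06, edgeR) and by 2.91 ± 0.29 in T5 against T0 (adjusted p = 1.15e-07). The step from T3 to T5 was 1.08 ± 0.26 (adjusted p = 0.0286), and this call was the least stable of the 9 genes. Its adjusted p was 0.0999, 0.0898 and 0.0644 without T3 library 1, 3 or 4, 0.264 and 0.239 without T5 letter A or B, 0.0558 without library A5 and 0.0517 with upper quartile scaling. The log2 fold change was between 0.94 and 1.35 in all alternatives.

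Myofibres and smooth muscle also express Cryab, Hspb1, Hspb2 and Hspb6, and RNA of such cells would add to these counts. Of 18 myofibre markers, none at 0 in any library, 12 rose and 2 fell in T3 against T0. Their summed level was 196 to 225 CPM (T0), 217 to 286 CPM (T3) and 191 to 203 CPM (T5). Much of it came from Actn3, Ttn, Neb and Atp2a1 (means of 55.1, 47.5, 43.3 and 22.7 CPM in T0). Of these, Ttn rose and Actn3 and Atp2a1 fell in T3 against T0. The call of Atp2a1 was lost with upper quartile scaling (-0.36, adjusted p = 0.144, edgeR). The markers with the smallest p in T3 against T0, Myh4, Ckm, Tnni2 and Tnnc2, rose by 2.02, 1.86, 2.16 and 2.03 (log2). Tnnc2, Ckm and Atp2a1 share 592, 451 and 763 exonic bases with genes on the other strand. Their counts are uncertain, since reads of both strands seem to be counted, as described below. In T5 against T3, 6 of the 18 fell and none rose (1 rose at an unadjusted p under 0.05). For 9 smooth muscle and pericyte markers the sum was 197 to 319 CPM (T0), 167 to 251 (T3) and 172 to 189 (T5), and 1 rose and 4 fell in T3 against T0 (2 and 2 with upper quartile scaling; 3 and 4 without T0 library 3). The sum of 9 endothelial markers was 230 to 280 CPM (T0), 351 to 451 (T3) and 213 to 276 (T5), with 3 higher and none lower in T3 against T0. For 7 markers of fibro-adipogenic progenitors and fibroblasts the sum was 125 to 194, 113 to 167 and 83.3 to 137 CPM, and for 5 of monocytes and macrophages 19.8 to 40.0, 27.5 to 38.5 and 26.8 to 33.2 CPM. In T3 against T0, 2 of the 7 rose and 1 fell, and 2 of the 5 rose and none fell. Beside these marker counts, 15.0% of all genes tested were called higher and 22.9% lower in T3 against T0. In T5 against T3 the shares were 1.28% and 0.888%. Without T0 library 3, 7 endothelial and 4 fibroblast markers were called higher in T3 against T0. The part of these cells in the changes between groups was not tested.

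Bag3 is the stress-induced member of its family and the scaffold that joins Hspb8, Hsp70 and the ubiquitin ligase Stub1 for the autophagy of damaged filamin. The gene lies at chr7:128523616-128546981 on the plus strand. T0 libraries had 77.0, 67.8 and 44.6 CPM, T3 libraries 284, 405, 358 and 403 CPM, and T5 libraries 733, 337, 371 and 513 CPM. Each T3 and T5 library was above each T0 library, but T3 and T5 overlapped. Bag3 rose by 2.55 ± 0.25 (log2, SE) in T3 against T0 (adjusted p = 2.95e-08, edgeR), which is 5.88-fold. The T5 against T3 difference was 0.42 ± 0.25 and was not called (adjusted p = 0.51), and that of T5 against T0 was 2.97 ± 0.27 (adjusted p = 3.9e-08). At T3, Bag3 had reached 86% of its log2 change from T0 to T5.

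Bag3 and Hspb1 had log2 fold changes of 2.55 and 2.47 in T3 against T0, and of 0.42 and 2.97 in T5 against T3. The Hspb1 count divided by the Bag3 count was 0.0308, 0.0387 and 0.0887 in T0, 0.0421, 0.0231, 0.0473 and 0.0668 in T3, and 0.254, 0.288, 0.254 and 0.273 in T5. Each T5 library was above each other library in this ratio. The mean log2 ratio was 2.66 higher in T5 than in T3, and an exact two-sided permutation test gave p = 0.133 (n = 2 and n = 4), the smallest that these groups allow. Between T3 and T0 it differed by -0.18 (exact two-sided permutation p = 0.8; smallest possible 0.0571). Adjusted over the 3 ratio tests made here, these are 0.2 and 0.8.

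Within T5, library A5 was highest and B6 next for each of Hspb1, Hspb8, Cryab and Bag3. A5 and A6 share a letter, and A5 had 2.18 times the Bag3 level of A6. Sums by letter spread less: Cryab had 135 and 130 CPM in letters A and B, and 114 to 158 CPM in the libraries. The SD of T5 (n = 2) leaves out this spread within a letter, and the tests of T5 use the same sums. Over all genes, the chi-square per gene between 2 libraries was 12.6 for A6 and B5, which differ in letter. It was 71.7 for A5 and A6 and 78.2 for B5 and B6, so libraries of a letter were not the most alike. Bag1 and Bag2 spread over only 1.09-fold and 1.11-fold in the T5 libraries.

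**Figure D2:**
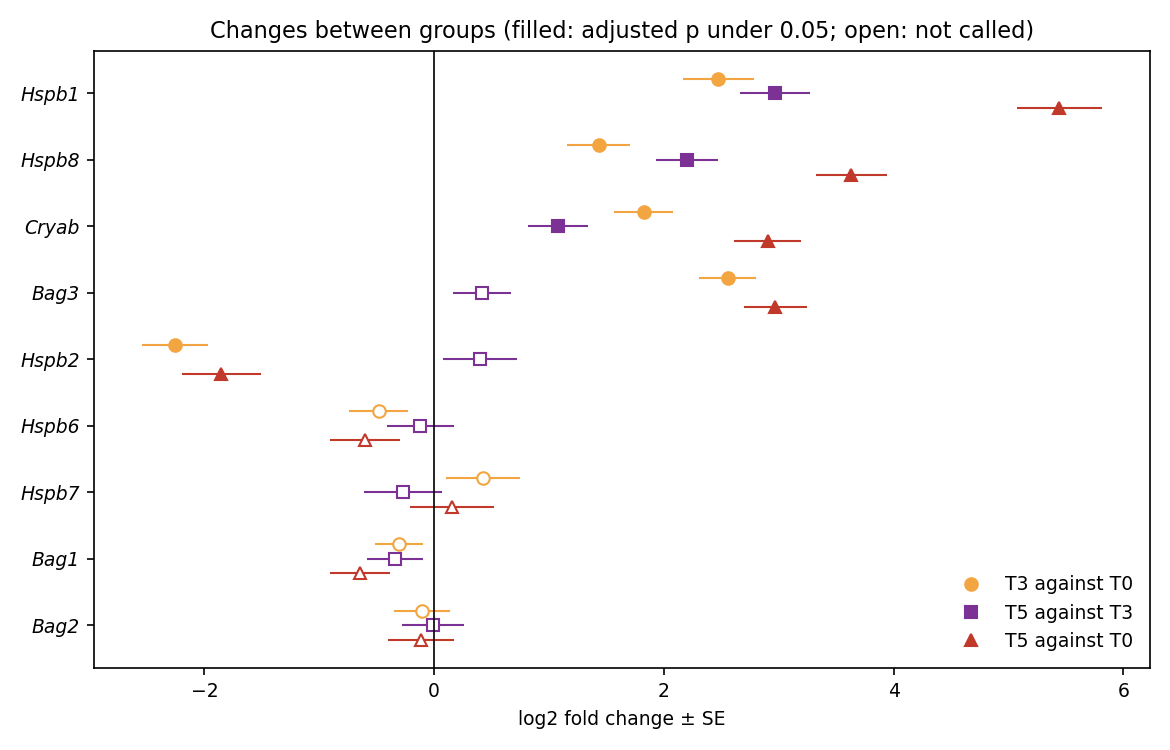
Log2 fold change with its standard error for each of the 9 genes in the 3 comparisons (edgeR; filled symbols had an adjusted p under 0.05, open symbols were not called). Hspb1, Hspb8 and Cryab have filled symbols right of 0 in all 3 comparisons, Bag3 in those against T0, and Hspb2 has filled symbols left of 0.

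Hspb2 (myotonic dystrophy kinase binding protein) is expressed in heart and skeletal muscle, where it forms a complex with Hspb3. It lies at chr9:50751078-50752354 on the minus strand and overlaps the start of Cryab. T0 libraries had 3.74, 2.60 and 3.41 CPM (169, 149 and 264 counts). T3 libraries had 0.460, 0.869, 0.892 and 0.408 CPM (25, 57, 58 and 21 counts), and T5 libraries 1.06, 0.543, 0.910 and 1.03 CPM. All T0 libraries were above all others, and T3 and T5 overlapped. Hspb2 fell by 2.25 ± 0.29 on the log2 scale in T3 against T0 (adjusted p = 1.11e-06, edgeR) and by 1.85 ± 0.35 in T5 against T0 (adjusted p = 0.00017). The T5 against T3 difference was 0.40 ± 0.32 (adjusted p = 0.627).

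The 2 genes share 1030 bases, 252 of them exonic in both, and the first exon of Cryab lies wholly within the last exon of Hspb2. Tsix had 1.004 to 1.014 times the count of Xist, which it covers on the other strand, in the 11 libraries, so the counts seem to take reads of both strands. Reads of the shared bases therefore cannot be told apart between Cryab and Hspb2. The Cryab count was 4.89, 5.93 and 6.01 times that of Hspb2 in T0, 95.5, 108, 51.0 and 164 times in T3, and 149, 210, 133 and 139 times in T5. The mean log2 ratio was 4.11 higher in T3 than in T0 (exact two-sided permutation p = 0.0571, n = 4 and n = 3, the smallest possible of 35 arrangements; 0.171 adjusted over 3 ratio tests). Against T0, the neighbours changed in opposite directions, Cryab higher and Hspb2 lower.

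**Figure D3:**
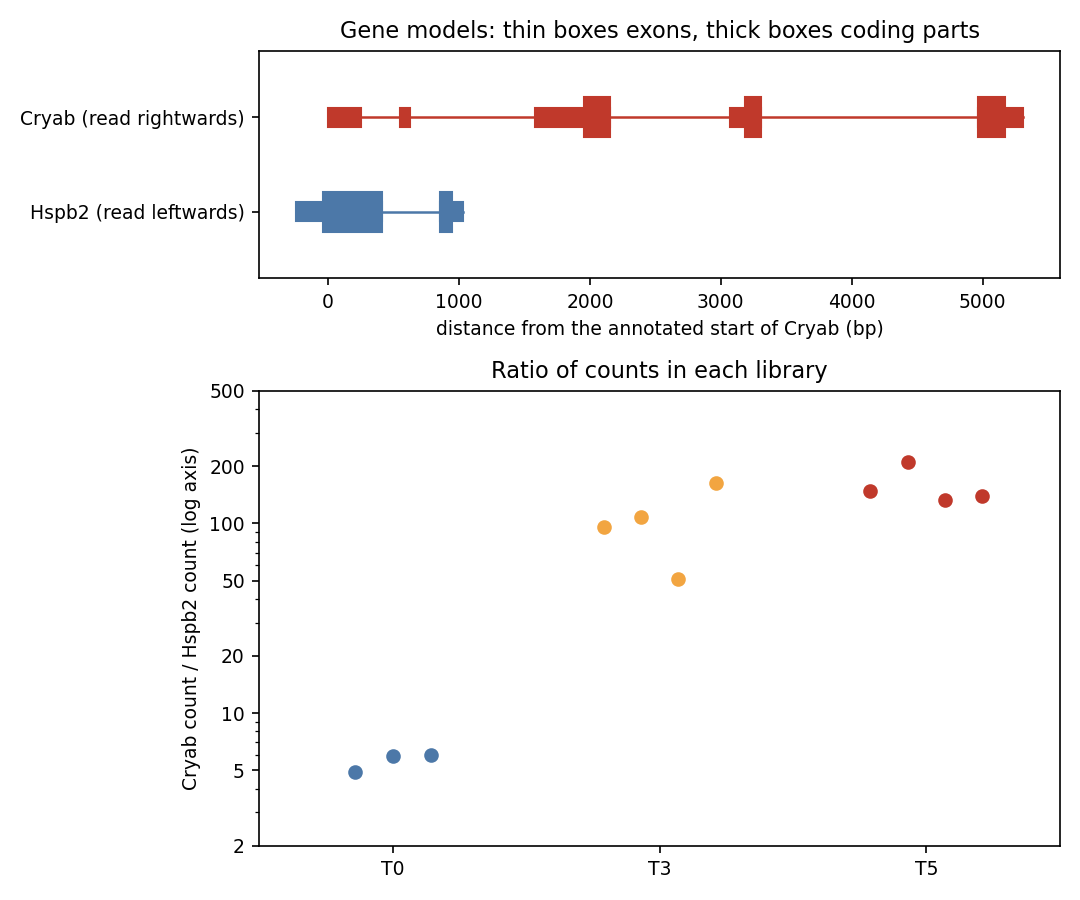
Top, gene models of Cryab and Hspb2 by distance in bases from the annotated start of Cryab, with thin boxes for exons and thick boxes for coding parts; bottom, the count of Cryab divided by that of Hspb2 in each library (log axis). The ratio was 4.89 to 6.01 (T0), 51.0 to 164 (T3) and 133 to 210 (T5).

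Hspb6 (Hsp20) is abundant in smooth, cardiac and skeletal muscle, and its phosphorylated form relaxes smooth muscle. It lies at chr7:30552178-30555443 on the plus strand. Its level was 3.01, 2.74 and 1.42 CPM in T0, 1.60, 1.88, 1.68 and 1.50 CPM in T3, and 1.71, 1.31, 1.79 and 1.32 CPM in T5. T0 libraries 1 and 2 were above all others and T0 library 3 was among the low ones. The differences were -0.48 ± 0.26 (log2, SE; adjusted p = 0.161, edgeR) in T3 against T0 and -0.60 ± 0.31 (adjusted p = 0.136) in T5 against T0. Without T0 library 3 they were -0.76 (adjusted p = 0.00373) and -0.87 (adjusted p = 0.00355), so that 1 library decided the call. With the 4 T5 libraries separate, T5 against T0 was called as well (-0.64, adjusted p = 0.0438). Hspb6 shares 122 exonic bases with Proser3 on the other strand, and Proser3 fell by 2.22 ± 0.24 in T3 against T0 (adjusted p = 1.32e-07); its part in the Hspb6 values was not tested.

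Hspb7 (cardiovascular heat shock protein) is a heart and muscle protein that binds filamin C. It lies at chr4:141420779-141425311 on the plus strand. It was at 0.642, 0.489 and 0.465 CPM in T0, 0.736, 0.854, 0.507 and 0.680 CPM in T3, and 0.597, 0.758, 0.408 and 0.591 CPM in T5, from 28 to 67 counts a library. The 3 groups overlapped. No comparison called it: the differences were 0.43 ± 0.32, -0.27 ± 0.34 and 0.15 ± 0.36 (log2, SE), in T3 against T0, T5 against T3 and T5 against T0 (adjusted p = 0.342, 0.746 and 0.756, edgeR). Its level per exonic kb was 0.188 in T0, where 1400 olfactory and vomeronasal receptor genes, taken as a low reference, averaged 0.0399 to 0.0623 CPM per kb.

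Bag1 is a nucleotide exchange factor for Hsp70 that also binds Bcl2 and the proteasome. It lies at chr4:40936398-40948294 on the minus strand. Its level was 43.0, 42.1 and 25.0 CPM in T0, 26.4, 31.9, 25.9 and 31.7 CPM in T3, and 24.2, 22.9, 23.5 and 22.2 CPM in T5. T5 libraries were below all others, and T0 library 3 was below the T3 libraries. Bag1 was not called in T3 against T0 (-0.31 ± 0.21, adjusted p = 0.29, edgeR), T5 against T3 (-0.34 ± 0.24, adjusted p = 0.591) or T5 against T0 (-0.65 ± 0.26, adjusted p = 0.0548). The last difference passed the threshold without T0 library 3 (-0.86, adjusted p = 0.000601), with the 4 T5 libraries separate (-0.67, adjusted p = 0.0062), without A5 (-0.71, adjusted p = 0.0245) and with DESeq2 (-0.74, adjusted p = 0.0369). In T3 against T0 it was -0.52 (adjusted p = 0.00602) without T0 library 3.

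Bag2 stops the ubiquitin ligase Stub1 from tagging the clients of Hsp70. It lies at chr1:33745484-33757795 on the minus strand. T0 libraries had 6.89, 6.15 and 3.01 CPM, T3 libraries 5.39, 4.77, 4.47 and 4.80 CPM, and T5 libraries 4.83, 5.12, 4.93 and 4.62 CPM. T3 and T5 lay within the range of T0. The differences were -0.10 ± 0.24, -0.01 ± 0.27 and -0.12 ± 0.29 (log2, SE), none of them called (adjusted p = 0.784, 0.988 and 0.77, edgeR). Without T0 library 3, Bag2 was called lower in T3 against T0 (-0.39, adjusted p = 0.0398). Without that library the count in T3 against T0 became 4 higher, 4 lower and 1 not called, and in T5 against T0 4 higher, 3 lower and 2 not called.

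Bag3 was called in T3 against T0 and Bag1 and Bag2 were not, and the difference between them was not tested. The Bag3 count was 1.61 to 1.79 times that of Bag1 in T0, 10.8 to 13.8 times in T3 and 14.7 to 30.3 times in T5. Set against Bag2 it was 11.0 to 14.8 times (T0), 52.8 to 84.8 times (T3) and 65.8 to 152 times (T5). Within T0 the Bag3 to Bag1 ratio was narrow although both levels were lowest in library 3.

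By level per exonic length the order of the genes differed between the groups. In T0, Bag1 (26.6 CPM per kb) and Bag3 (24.1) led and their libraries overlapped, followed by Cryab (12.0), then Hspb2 (3.81) and Hspb1 (2.83), which overlapped, Bag2 (1.71), Hspb6 (1.02) and Hspb8 (0.491), each overlapping with the next, and Hspb7 (0.188). In T3 the order was Bag3 (142 CPM per kb), Cryab (42.4), Bag1 (21.5) and Hspb1 (15.8). The last 2 overlapped, as did each neighbour among Bag2 (1.59), Hspb8 (1.35), Hspb2 (0.789) and Hspb6 (0.723), and Hspb7 (0.251) was again lowest. In T5, Bag3 (189), Hspb1 (124) and Cryab (89.6 CPM per kb) overlapped at the top and stood clear of Bag1 (17.0), Hspb8 (6.20) and Bag2 (1.57). Hspb2 (1.06) and Hspb6 (0.667) overlapped below these, above Hspb7 (0.207). How introns were counted is not given in the sources used here. 2610306O10Rik, a transcript model inside Bag3 on the same strand that shares no exonic base with it, rose by 2.14 ± 0.24 in T3 against T0 (adjusted p = 2.21e-07, edgeR), and the Bag3 count was 6.52 to 11.7 times its count in the 11 libraries.

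**Figure D4:**
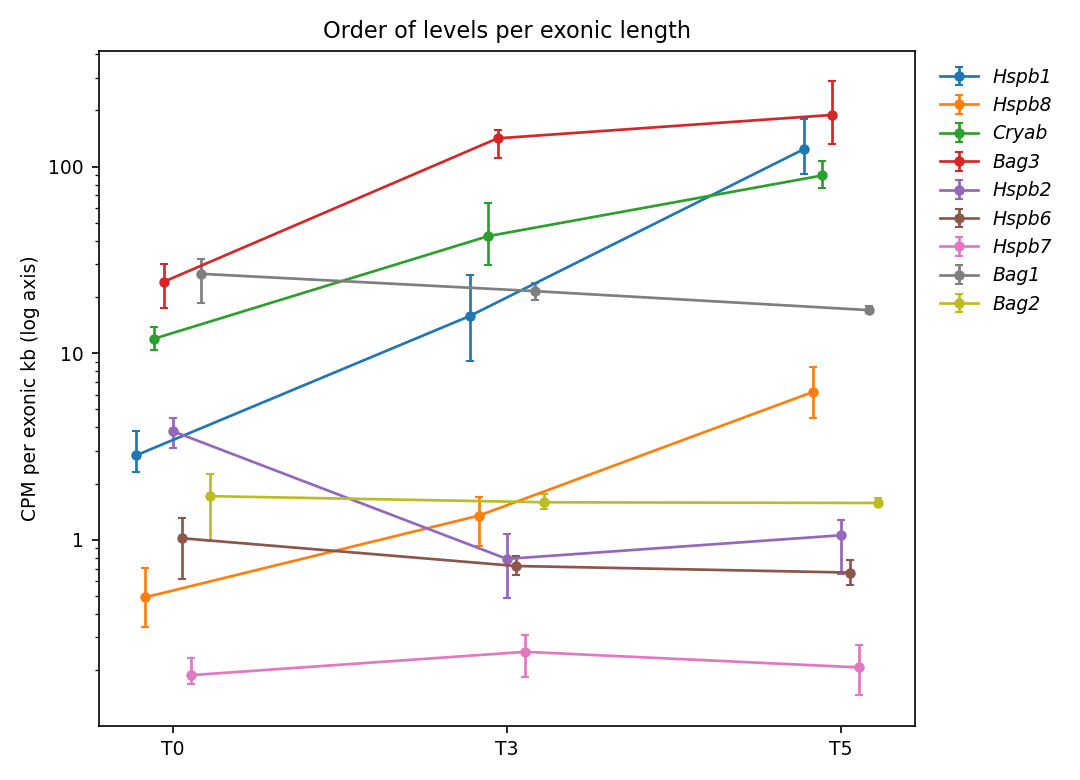
Mean level per exonic kb (log axis) of the 9 genes in T0, T3 and T5; bars run from the lowest to the highest library. Hspb1 climbs from the fifth place in T0 to the second in T5, and Hspb2 drops from the fourth to the seventh.

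Of 5 genes outside the 9 listed with the small heat shock proteins (Hspb3, Hspb9, Cryaa, Odf1 and Hspb11), none rose and 1 fell in T3 against T0 (none higher at an unadjusted p under 0.05 or with DESeq2). This was Hspb11, which carries the family name but is the intraflagellar transport protein Ift25. It went from 11.0 ± 2.3 CPM (SD, n = 3) to 2.85 ± 0.56 (n = 4) and fell by 1.94 ± 0.22 on the log2 scale (adjusted p = 2.65e-07, edgeR). In T5 it had 3.03 ± 0.31 CPM (n = 2) and was again called lower than in T0 (adjusted p = 1.51e-05). The list's median was 0.51, 0.09 and 0.11 in T3 against T0, T5 against T3 and T5 against T0. All genes tested had 15.0%, 1.28% and 13.2% called higher in these comparisons, and 22.9%, 0.888% and 22.5% lower. The lens, testis and muscle genes Hspb3, Hspb9, Cryaa and Odf1 reached at most 0.672 CPM in any library and were not called in any comparison with TMM scaling. Hspb9 was called higher in T3 against T0 (adjusted p = 0.0491) and Cryaa in T5 against T0 (adjusted p = 0.0355) with upper quartile scaling. Among Bag4, Bag5 and Bag6, Bag5 rose in T3 against T0 (1.21 ± 0.21, adjusted p = 5.05e-05), from 13.4 ± 2.7 to 30.9 ± 3.8 CPM. None of these 3 was called in T5 against T3 (1 lower at an unadjusted p under 0.05) or T5 against T0 (1 higher and 1 lower), also with DESeq2. Their median was 0.19, -0.37 and -0.18. With upper quartile scaling Bag6 was called higher in T3 against T0 (0.53, adjusted p = 0.0066) and Bag5 in T5 against T0 (0.93, adjusted p = 0.000292). Without T0 library 3, 1 was called lower in T3 against T0 and in T5 against T3, and 1 higher and 2 lower in T5 against T0.

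Genes that act with Hsf1 or are known targets of it were a list of 20. In T3 against T0, 13 rose and 1 (Fkbp4, -0.64 ± 0.21, adjusted p = 0.0188, edgeR) fell. In T5 against T3, 8 rose and none fell (2 lower at an unadjusted p under 0.05, none with DESeq2), and in T5 against T0 15 rose and 1 (Hsbp1, which binds Hsf1; -0.76 ± 0.24, adjusted p = 0.0162) fell. With upper quartile scaling these were 15 and 0, 12 and 0, and 17 and 0, so that the lower calls were lost; in T5 against T3 without T0 library 3 they were 12 and 2. Their median log2 fold change was 1.02, 0.75 and 1.97 in the 3 comparisons. Of all genes tested, 15.0%, 1.28% and 13.2% were called higher in these comparisons, and 22.9%, 0.888% and 22.5% lower. The neighbouring genes of inducible Hsp70, Hspa1a and Hspa1b, rose at both steps. Libraries of T0 had 0.698 to 2.11 CPM of Hspa1a, those of T3 27.3 to 107 and those of T5 325 to 825. For Hspa1b the ranges were 0.776 to 1.85, 20.8 to 110 and 337 to 846 CPM. These near-identical copies share reads, so that the split between them is uncertain. Dnajb1, the Hsp40 partner of Hsp70, rose by 2.05 ± 0.24 in T3 against T0 (adjusted p = 3.78e-07) and by 2.88 ± 0.24 in T5 against T3 (adjusted p = 1.53e-07). Hsph1, the Hsp110 exchange factor, rose by 2.46 ± 0.30 (adjusted p = 5.95e-07) and 2.59 ± 0.30 (adjusted p = 1.26e-05).

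Some members of the list were called at 1 step alone, and the difference between steps was not tested. Hspa4l, another Hsp110 gene, was not called in T3 against T0 (0.43 ± 0.20, adjusted p = 0.106, edgeR) and rose by 2.02 ± 0.22 in T5 against T3 (adjusted p = 4.82e-06). Hspa4l was called in T3 against T0 too with upper quartile scaling (0.72, adjusted p = 0.00546). Ubb, a polyubiquitin gene, rose by 1.93 ± 0.22 in T3 against T0 (adjusted p = 1.98e-07), and its T5 against T3 difference of -0.04 ± 0.23 was not called (adjusted p = 0.95). Hsp90aa1, the inducible Hsp90, was called at both steps and rose by 2.94 ± 0.29 and then by 1.13 ± 0.28 (adjusted p = 3.07e-08 and 0.0312; 0.063 for the second step with DESeq2).

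Bag3 partners and genes of chaperone-assisted autophagy were a list of 15, of which 8 rose and 4 fell in T3 against T0. In T5 against T3, 2 rose (Hspa1a and Hspa1b) and none fell (2 at an unadjusted p under 0.05, and 1 with DESeq2), and in T5 against T0 7 rose and 3 fell. The median log2 fold change was 0.71, -0.04 and 0.43 in these comparisons. The shares of all genes called higher were 15.0%, 1.28% and 13.2%, and those called lower 22.9%, 0.888% and 22.5%. With upper quartile scaling 10 rose and 2 fell in T3 against T0 and 9 rose and 1 fell in T5 against T0, and in the latter 6 fell without T0 library 3. Flnc, the filamin of the Z-disc and a client of Bag3, went from 350 ± 65 CPM (SD, n = 3) to 2612 ± 46 (n = 4) and rose by 2.90 ± 0.24 (log2, SE) in T3 against T0 (adjusted p = 3.99e-09, edgeR). Its T5 level was 1870 ± 146 CPM (n = 2), which was not called against T3 (-0.48 ± 0.25, adjusted p = 0.429). Sqstm1, the autophagy receptor p62, rose by 2.32 ± 0.25 in T3 against T0 (adjusted p = 1.15e-07), with 110 ± 37 CPM in T0, 551 ± 46 in T3 and 560 ± 27 in T5. Flna, the filamin of most cell types, differed by -0.05 ± 0.22 in T3 against T0 (adjusted p = 0.889). The T5 against T3 step of Bag3 (0.42), Flnc (-0.48) and Sqstm1 (0.02) was not called in any of the 3.

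The 4 members of this list that fell in T3 against T0 were Stub1, Synpo2, Wipi1 and Vps18. Stub1, the ubiquitin ligase CHIP, fell by 0.58 ± 0.21 on the log2 scale (adjusted p = 0.0317, edgeR). Synpo2, which tethers Bag3 to membranes during autophagosome formation, fell by 1.02 ± 0.20 (adjusted p = 0.000168). Wipi1, which binds early autophagosomes, fell by 0.85 ± 0.21 (adjusted p = 0.00218), and Vps18, of the tethering complex for fusion with lysosomes, fell by 0.70 ± 0.23 (adjusted p = 0.0177). With upper quartile scaling the calls of Stub1 (-0.26, adjusted p = 0.148) and Vps18 (-0.36, adjusted p = 0.124) were lost, and that of Stub1 also with DESeq2 (-0.57, adjusted p = 0.052). Stub1 shares 1084 exonic bases with Jmjd8 on the other strand, and Sqstm1 shares 580 with Mrnip, so that their counts are uncertain.

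Kinases of the p38 pathway, which phosphorylate Hspb1 by way of Mapkapk2, were a list of 8. In T3 against T0, 4 rose and 3 fell, in T5 against T3 none was called (none at an unadjusted p under 0.05 in edgeR, and none with DESeq2), and in T5 against T0 3 rose and 3 fell. The medians were 0.49, -0.21 and 0.55. Over all genes tested, 15.0%, 1.28% and 13.2% were called higher in these comparisons, and 22.9%, 0.888% and 22.5% lower. The pair of kinases that activate p38 moved apart: Map2k3 rose by 3.60 ± 0.25 (adjusted p = 3.15e-10, edgeR), from 13.1 ± 3.4 to 159 ± 24 CPM, and Map2k6 fell by 2.49 ± 0.21 (adjusted p = 6.05e-09), from 67.6 ± 20 to 12.0 ± 1.1 CPM. Mapk14 and Mapk12, of the p38 kinases themselves, fell by 0.69 ± 0.21 (adjusted p = 0.0092) and 0.89 ± 0.22 (adjusted p = 0.00216). Mapkapk2 rose by 1.53 ± 0.21 (adjusted p = 3.28e-06) and Mapkapk3 by 1.18 ± 0.21 (adjusted p = 6.76e-05). The RNA levels say nothing of phosphorylation, which was not measured.

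Of 5 intermediate filament genes whose proteins are clients of Cryab, 3 rose and 1 fell in T3 against T0, and 1 fell and none rose in T5 against T3 (none higher at an unadjusted p under 0.05, and none with DESeq2). In T5 against T0, 3 rose and none fell, also at an unadjusted p under 0.05, and DESeq2 called 2 higher and none lower. The medians were 1.16, -0.50 and 0.66. The shares over all genes tested were 15.0%, 1.28% and 13.2% higher, and 22.9%, 0.888% and 22.5% lower. Des (desmin) rose by 1.16 ± 0.22 (log2, SE; adjusted p = 0.000122, edgeR) and Vim (vimentin) by 1.55 ± 0.22 (adjusted p = 3.72e-06) in T3 against T0. Synm (synemin) fell by 0.63 ± 0.20 (adjusted p = 0.016), a call lost with upper quartile scaling. Lmna, of the nuclear lamina, rose by 2.68 ± 0.24 (adjusted p = 9.98e-09) and then fell by 1.31 ± 0.26 in T5 against T3 (adjusted p = 0.00568), the 1 call there, beside 2 with upper quartile scaling or without T0 library 3, a step at which Cryab, Hspb1 and Hspb8 rose.

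**Figure D5:**
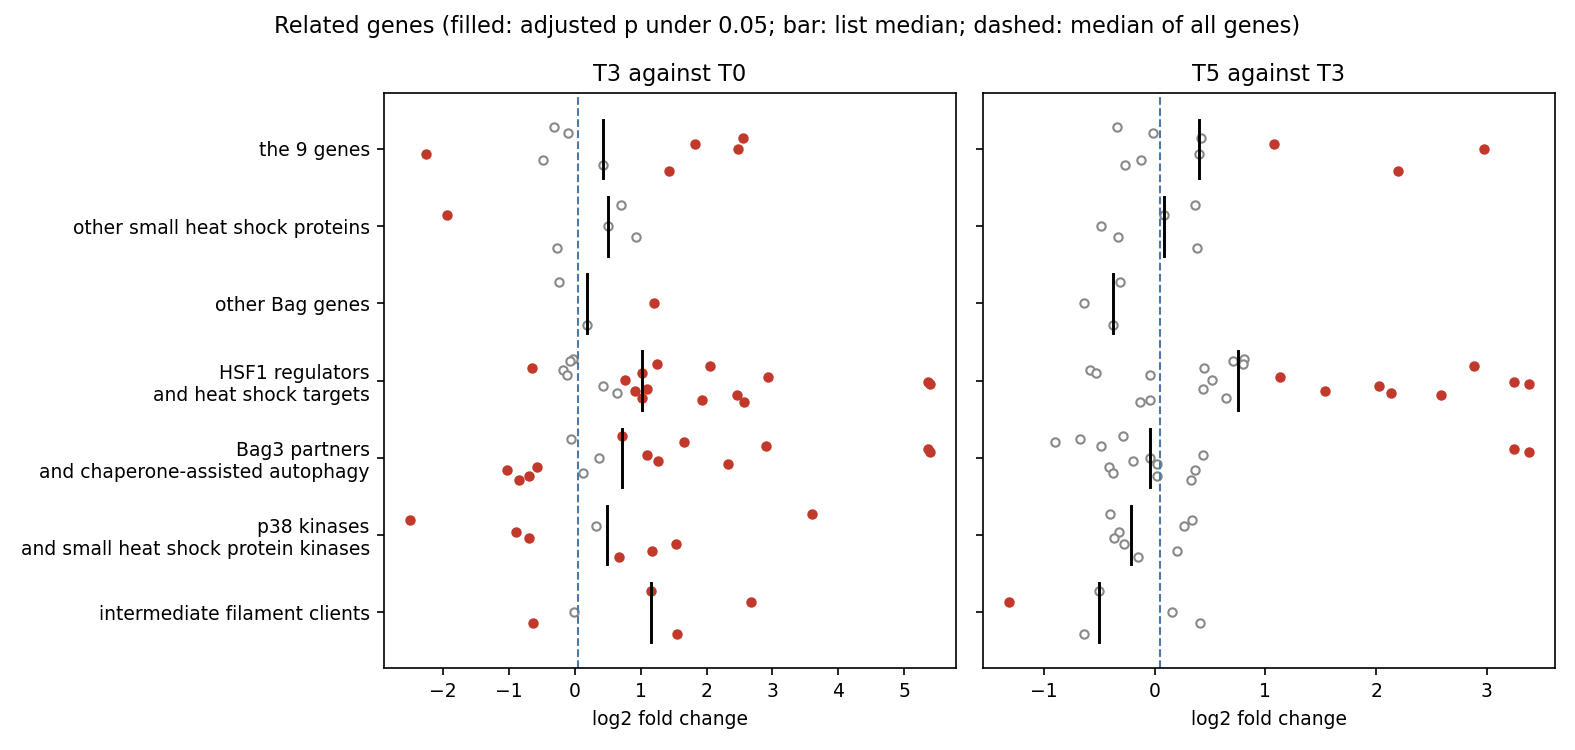
Log2 fold change of each gene of the 9 and of 6 related lists in T3 against T0 (left) and T5 against T3 (right); filled points had an adjusted p under 0.05 (edgeR), the bar is the median of the list and the dashed line that of all genes tested. Filled points stand in each list at the left, and at the right they are among the 9 genes, the Hsf1 list, the Bag3 partners (Hspa1a and Hspa1b) and the intermediate filament genes (Lmna, lower).

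Other genes had courses close to those of the 9. Likeness was Pearson's r of log2 CPM over the 9 replicates, among 9302 protein-coding genes whose mean log2 CPM was 3 or more; the replicates share the same 3 groups, so that high values are common. Hspb1 was most like Rbpms (r = 0.986), Wdr95 (0.984) and Srgap1 (0.982). Hspb8 was most like Col12a1 (0.988), Col27a1 (0.98) and again Rbpms (0.979), which had 18.0, 31.2 and 68.6 CPM in T0, T3 and T5. Cryab was most like Tmod1 (0.975), Prune2 (0.975) and Sept11 (0.973). The course of Bag3 was met most closely by Mrps6 (0.997), Spty2d1 (0.996) and Slc5a3 (0.996), with Slc5a3 at 35.6, 166 and 232 CPM.

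For Hspb2 the closest were Sox8 (r = 0.986), Msmo1 (0.978) and Ebf4 (0.978), and Sox8 had 39.5, 5.94 and 10.6 CPM in T0, T3 and T5. Hspb6 was closest to Zbtb49 (0.985), Bcl6 (0.976) and Per1 (0.974), and Bag1 to Ppp3r1 (0.993), 4933434E20Rik (0.993) and Zfp148 (0.992). Bag2 was closest to Supt4a (0.961), Man2b1 (0.954) and 2410131K14Rik (0.949). The least close match was that of Hspb7, with Smox (0.885), Rraga (0.866) and Yod1 (0.86).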

How the data were processed

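RNA of the fixed, sorted cells was sequenced from stranded total RNA libraries, per the labels' protocols. The authors deposited raw counts of reads per gene; alignment with STAR 2.5.0a to GRCm38 and counting with featureCounts 1.4.6-p3 are named in the submitters' processing notes, and the strand setting and annotation are not given in the sources used here. Gene IDs were matched to GENCODE vM21 (48349 of 48709). Columns name the group but not the sample, so replicates carry the column's number.

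Tests used edgeR 4.0.16 (R 4.3.3): a two-sided quasi-likelihood F test with TMM, filterByExpr by group, 1 model for all groups without covariates, Benjamini-Hochberg adjustment over 31999 genes and a threshold of 0.05. The SE was taken as the size of the log2 fold change over the square root of F. The code was checked on simulated counts. All 9 genes are named; of each related list, up to 4 members with the smallest p. Some genes outside that rule (Bag3 partners that fell, Fkbp4, Hsbp1) were chosen after their values were seen. The 9 genes and the lists were chosen with earlier results of these data known. Alternatives were upper quartile scaling, DESeq2 1.42.0, no filter, fewer groups, separate T5 libraries, a replicate block and leaving out each replicate; leaving out single T5 libraries was added after seeing the data. Replicates differed by more than sampling noise.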

Additional observations from a re-analysis of the deposited data

How the results depend on the processing

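For the 9 genes, 495 results under 19 alternatives gave 479 on the same side of the threshold, 7 that lost and 9 that gained a call. In 16 of the 479, of Bag1, Bag2 and Hspb7, the sign changed, with no call on either side. Of 13 called results 12 kept their call in all of them; the exception, Cryab in T5 against T3, and the gained calls of Hspb6, Bag1 and Bag2 are given with their values above. Over all genes, 12139, 695 and 11413 were called in T3 against T0, T5 against T3 and T5 against T0. For T5 against T3 the count was 1213 without the filter on low counts, 2993 with only the 2 groups compared and 2122 with the 4 T5 libraries separate. Leaving out 1 replicate gave 184 (without T5 letter B; 224 without A, 457 without T3 library 4) to 2503 (without T0 library 3; 1439 without T0 library 1). For T5 against T0 that range was 7392 (without T5 letter B; 7511 without A) to 17556 (without T0 library 3). With the column number as a replicate block, T3 against T0 had 10805 calls and the same 4 higher and 1 lower among the 9 genes. Samples with the same number did not deviate together in each pair (r = -0.17, 0.216 and 0.224), so the numbers were not taken as pairs, and T5 shares no number with the others. Without T5 letter A or B, the lone T5 replicate is assumed to vary like the other groups. Depth limits Hspb7 and Hspb2, which had 21 to 58 counts in the T3 libraries and the largest SE of the 9 genes in T5 against T3.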
